A study of Mus musculus with 30 samples.

Results

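The STAT family of transcription factors was followed across the mRNA libraries of 2 mouse blood progenitor lines. Members were taken by gene symbol after the gene identifiers of the count files had been matched to mouse symbols. The 6 analysed are Stat2, Stat3, Stat4, Stat5a, Stat5b and Stat6, of 50686 genes listed, and all 6 passed the filter on low counts in every fit. HPCLSK and HPC7 are progenitor lines grown with stem cell factor, HPCLSK on plates coated with agarose. Each line carried a retroviral vector for STAT3 Y640F, for STAT3, or an empty vector named after the marker dsRed, with 3 libraries in each of the 6 groups (18 in all). The labels give strain C57BL/6N for HPCLSK and 129SV for the HPC7 RNA samples. The cells had no treatment beyond the vector. Chromatin samples of HPC7 belong to the same series and were not analysed here. The series text calls the 3 libraries of a group technical replicates, so errors and p-values cover the spread among libraries and say nothing of repeat transductions.

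STAT proteins wait in the cytoplasm until a cytokine receptor and its Janus kinase phosphorylate them on tyrosine. They then pair through their SH2 domains, enter the nucleus and bind DNA. In blood cells the members serve different receptors. STAT2 works with IRF9 in the response to type I interferon. STAT4 carries the signal of interleukin 12 in T and natural killer cells, and STAT6 that of interleukins 4 and 13. STAT5A and STAT5B are near-identical proteins that act below the receptors for erythropoietin, thrombopoietin, interleukin 3 and GM-CSF. STAT3 acts below gp130 and the G-CSF receptor. The Y640F substitution lies in the SH2 domain of STAT3 and is known as an activating mutation of blood cancers. For the other members, which share kinases and binding sites with STAT3, the comparisons ask whether their own RNA differs when either STAT3 form is added.

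Library totals were 9537258 to 22154763 counts in HPCLSK and 23127740 to 38556669 in HPC7. The file headers name a different sequencing run for each line, so line and run cannot be told apart. HPCLSK Y640F replicate 1 and HPCLSK empty vector replicate 1 stood apart from the others of their groups, at a chi-square of 21.2 and 27.0 per degree of freedom against the other Y640F libraries, and of 10.6 and 8.06 against the other empty vector libraries. The HPC7 empty vector libraries also differed from each other (10.3 to 20.2). All 12 stem and progenitor markers exceeded 1 CPM in every group, and their levels are given beside Stat4. Levels are given as CPM, counts scaled to a common library total with the TMM factors of all 18 libraries. Folds within a line come from a fit of its 9 libraries and comparisons between lines from a fit of all 18. Calls needed both a fold of at least 2 and an adjusted p under 0.05 (edgeR quasi-likelihood test, Benjamini-Hochberg correction across every gene tested). Levels are given with the SD over 3 libraries and log2 fold changes with their standard error.

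The start regions of Stat2 and Stat4 are shown because, of the 9 windows of the 6 members, only these hold a match to the motifs searched, which are those of STAT and interferon factors. Stat4 was called in several comparisons described below and Stat2 in none. Sequences are RefSeq windows on build GRCm38.p6, from 250 bases before to 50 bases after an annotated start, with the matches in capitals. The Stat2 window is chr10:128270248-128270547 on the plus strand. Its first capitals match the core of the interferon-stimulated response element (GAAA, any 2 bases, GAAA) on the opposite strand, 222 bases before the start. Its second capitals match a STAT site with a longer spacer (TTC, any 4 bases, GAA), 210 bases before the start. The Stat4 window is the second of 2 annotated starts, chr1:52007990-52008289 on the plus strand, and holds the same interferon core 97 bases before the start.
Stat2: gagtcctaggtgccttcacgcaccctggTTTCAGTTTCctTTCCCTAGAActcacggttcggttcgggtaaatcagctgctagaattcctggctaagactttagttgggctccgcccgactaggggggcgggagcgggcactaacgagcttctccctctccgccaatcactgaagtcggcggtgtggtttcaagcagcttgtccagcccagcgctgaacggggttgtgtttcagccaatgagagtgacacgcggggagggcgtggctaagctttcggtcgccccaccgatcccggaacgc
Stat4: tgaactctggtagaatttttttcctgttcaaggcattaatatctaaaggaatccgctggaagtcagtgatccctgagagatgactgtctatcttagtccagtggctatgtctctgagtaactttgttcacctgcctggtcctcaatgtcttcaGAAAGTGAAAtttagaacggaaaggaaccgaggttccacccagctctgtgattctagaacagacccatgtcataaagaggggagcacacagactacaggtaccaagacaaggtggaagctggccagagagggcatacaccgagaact

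Over both strands, the interferon core was found in 3.44% of 32851 RefSeq windows of this length and the STAT site with the longer spacer in 6.95%. The common STAT site (TTC, any 3 bases, GAA) was found in 8.3% of the windows and in none of the 9 windows of the 6 members. The other 7 windows, of Stat3, Stat5a, Stat5b, Stat6 and the first Stat4 start, held none of the motifs. These are matches of letters, and binding was not analysed here.

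No more than 2 of 6 members were called in any comparison. Stat3, whose counts include RNA from the vectors, was among the called members in 4 of the 6 comparisons within a line. With Y640F against empty vector in HPCLSK, 2 of 6 members were called (Stat3 and Stat6, both higher), against 16.2% of all tested genes. With Y640F against STAT3 in HPCLSK it was 1 of 6 (Stat3, higher), against 14.2%. With STAT3 against empty vector in HPCLSK it was 0 of 6 with edgeR, against 4.60%, also 0 with DESeq2, while 2 of 6 had an unadjusted p under 0.05. In HPC7, Y640F against empty vector gave 2 of 6 (Stat3 higher, Stat4 lower), against 8.18%, and STAT3 against empty vector gave the same 2 genes in the same directions, against 7.22%. Both HPC7 comparisons share the 3 empty vector libraries. Y640F against STAT3 in HPC7 gave 0 of 6 with edgeR and 0 with DESeq2, against 7.89%, with 3 of 6 at an unadjusted p under 0.05.

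By the adjusted p alone, with no fold minimum, 5 of 6 members passed for Y640F against empty vector in HPCLSK (58.5% of all tested genes), 5 of 6 for Y640F against STAT3 (53.8%) and 1 of 6 for STAT3 against empty vector (14.1%). In HPC7 it was 4 of 6 for Y640F against empty vector (57.3%), 4 of 6 for STAT3 against empty vector (48.6%) and 3 of 6 for Y640F against STAT3 (51.2%). The median absolute log2 fold change of the members was 0.52 for Y640F against empty vector in HPCLSK, beside 0.32 over all tested genes, and 0.54 beside 0.25 for the same comparison in HPC7. For STAT3 against empty vector it was 0.12 beside 0.13 in HPCLSK and 0.25 beside 0.21 in HPC7. These counts and medians include Stat3, whose own change includes RNA from the vectors. In HPC7 with STAT3 against empty vector, the others had 0.18 (Stat2), −1.93 (Stat4), 0.12 (Stat5a), −0.08 (Stat5b) and −0.32 (Stat6).

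**Figure D1:**
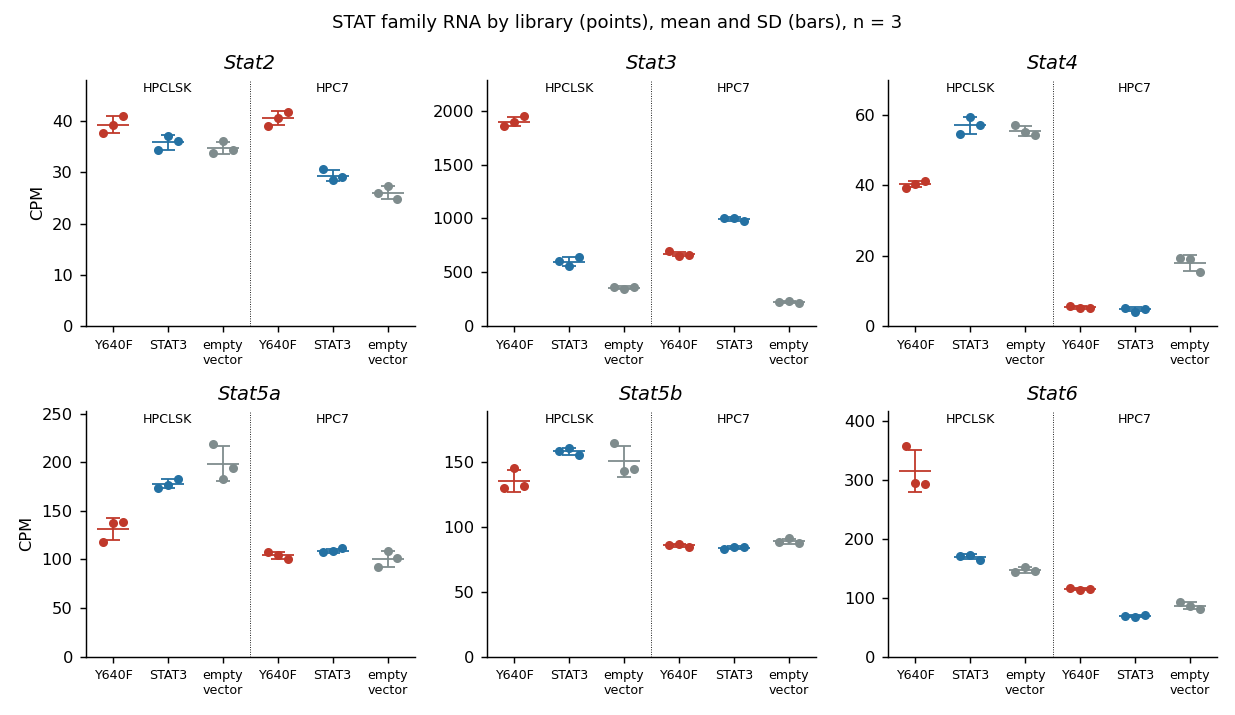
RNA of the 6 members in CPM (vertical axes, from 0, a scale for each gene) in the 6 groups, HPCLSK left and HPC7 right of the dotted line; points are libraries, bars the mean and SD (n = 3). Stat4 is near 5 CPM in HPC7 with either STAT3 form and 15.4 to 19.2 CPM with empty vector, and Stat6 reaches 293 to 357 CPM in HPCLSK with Y640F.

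Stat3 itself served as the check of the vectors. It stood at 1860, 1895 and 1949 CPM in the 3 HPCLSK Y640F libraries, at 600.4, 556 and 640.5 CPM with STAT3, and at 365, 341 and 358 CPM with empty vector. In HPC7 the libraries held 693, 654 and 660.0 CPM with Y640F, 1005, 1007 and 976 CPM with STAT3, and 223, 236 and 216 CPM with empty vector. No groups overlapped, and the vectors ranked differently by line, Y640F highest in HPCLSK and STAT3 highest in HPC7. Against empty vector the log2 fold change in HPCLSK was 2.43 ± 0.06 with Y640F (adjusted p = 4.35e-09) and 0.76 ± 0.06 with STAT3 (adjusted p = 2.37e-05), which is under the fold minimum. In HPC7 it was 1.59 ± 0.04 with Y640F (adjusted p = 1.82e-11) and 2.15 ± 0.04 with STAT3 (adjusted p = 3.8e-13). The highest of the 6 group means was 8.45 times the lowest. Reads of the vector and of the cell's own gene cannot be told apart in these counts, so every comparison of the forms is also one of unequal Stat3 RNA.

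Stat4, the interleukin 12 mediator, fell with both forms of STAT3 in HPC7 and with neither in HPCLSK past the fold minimum. In HPCLSK it stood at 39.4, 40.4 and 41.2 CPM with Y640F, 54.7, 59.5 and 57.1 CPM with STAT3, and 57.1, 55.2 and 54.3 CPM with empty vector. The Y640F libraries lay below all others, while STAT3 and empty vector overlapped. The log2 fold change was −0.45 ± 0.05 for Y640F against empty vector (adjusted p = 4.33e-05) and 0.05 ± 0.05 for STAT3 (adjusted p = 0.623).

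In HPC7 the libraries held far less Stat4 with either form than with empty vector. They held 5.60, 5.11 and 5.002 CPM with Y640F, 5.15, 4.03 and 4.91 CPM with STAT3, and 19.2, 19.1 and 15.4 CPM with empty vector. Every library with a STAT3 form lay below every empty vector library, and the forms overlapped each other. The log2 fold change was −1.75 ± 0.11 for Y640F (adjusted p = 2.72e-08) and −1.93 ± 0.11 for STAT3 (adjusted p = 1.92e-08), against the same empty vector libraries. Between the forms it was 0.18 ± 0.13 (adjusted p = 0.263). In counts, single libraries held 146 to 200 reads of Stat4 with either form. The HPCLSK value minus the HPC7 value was 1.31 ± 0.12 for Y640F against empty vector (adjusted p = 7.35e-08) and 1.97 ± 0.12 for STAT3 against empty vector (adjusted p = 9.8e-10). For Stat3 that line difference was 0.85 ± 0.07 for Y640F against empty vector (adjusted p = 1.87e-08) and −1.39 ± 0.07 for STAT3 against empty vector (adjusted p = 5.34e-11). The line difference of Stat3 had opposite signs for the 2 forms, and that of Stat4 was positive for both. The part of the amount of Stat3 RNA in the Stat4 values was not tested.

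Genes around Stat4 had smaller values in HPC7. Stat4 lies on chromosome 1 at 51987148 to 52107189 (GRCm38, plus strand; ENSMUSG00000062939.11). The median log2 fold change of the 792 other tested genes of that chromosome was −0.34 with each form. Over all tested genes it was 0.001 with Y640F and −0.002 with STAT3. For the line difference the chromosome median was 0.33 for Y640F against empty vector and 0.43 for STAT3 against empty vector. The part of the chromosome in the Stat4 values was not tested. The median of the 9 tested genes within 1 Mb was 0.00 with Y640F and −0.04 with STAT3 in HPC7. None of these 9 was called by edgeR or DESeq2 (5 with Y640F and 4 with STAT3 had an unadjusted p under 0.05). Of all tested genes 8.18% were called with Y640F and 7.22% with STAT3. The nearby Nabp1, for a protein that binds single-stranded DNA, had 0.75 ± 0.11 with Y640F and 0.38 ± 0.11 with STAT3.

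Markers of T and natural killer cells, where Stat4 is best known, were low, and the defining Cd3e, Cd8a and Ncr1 were at 0 in all 6 groups. In HPCLSK their summed level was 9.79 to 14.3 CPM with Y640F, 19.3 to 26.2 CPM with STAT3 and 32.1 to 34.4 CPM with empty vector, with 6 of 10 at 0 in each group. In HPC7 it was 3.71 to 5.08 CPM with Y640F, 1.74 to 2.32 CPM with STAT3 and 3.40 to 4.40 CPM with empty vector, with 5 of 10 at 0 in all 3 groups. Il12rb2, a chain of the interleukin 12 receptor that signals through STAT4, held most of the HPCLSK sum. It averaged 11.9 ± 2.23 CPM with Y640F, 23.3 ± 3.64 CPM with STAT3 and 33.1 ± 1.22 CPM with empty vector in HPCLSK. In HPC7 it averaged 0.991 ± 0.191 CPM with Y640F, 1.65 ± 0.226 CPM with STAT3 and 2.93 ± 0.630 CPM with empty vector. It fell with Y640F against empty vector in HPCLSK (log2 fold change −1.48 ± 0.14, adjusted p = 9.31e-06) and in HPC7 (−1.55 ± 0.21, adjusted p = 2.37e-05). Cd4, the only other tested gene of this list in HPC7, went the other way there, with 3.15 ± 0.656 CPM with Y640F, 0.285 ± 0.111 CPM with STAT3 and 1.00 ± 0.0684 CPM with empty vector. It rose with Y640F against empty vector (log2 fold change 1.69 ± 0.21, adjusted p = 1.27e-05) and fell with STAT3 (−1.81 ± 0.32, adjusted p = 0.000338). In these bulk libraries fewer cells with a transcript and less of it per cell cannot be told apart.

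Markers of stem and progenitor cells and of granulocytes also differed between the groups. In HPCLSK the summed level of the 12 stem and progenitor markers was 3228 to 3694 CPM with Y640F, 4832 to 5253 CPM with STAT3 and 5561 to 6018 CPM with empty vector, and 2 of 12 fell with Y640F against empty vector, where 16.2% of all tested genes were called in either direction. The list median there was −0.49 on the log2 scale, and −0.14 for STAT3 against empty vector. The HPC7 sums were 3764 to 3862 CPM with Y640F, 3485 to 3528 CPM with STAT3 and 3626 to 3839 CPM with empty vector. There 1 of 12 rose and 1 fell with Y640F against empty vector (8.18% of all tested genes called), and 0 rose and 1 fell with STAT3 (7.22%). The HPC7 list medians were 0.16 with Y640F and 0.18 with STAT3. The group means of Kit, Gata2, Tal1, Lmo2, Lyl1 and Myb, regulators of early blood cells, were higher with both forms than with empty vector in HPC7. Those of Runx1, Erg, Fli1 and Ptprc, of the same list, were lower with both forms there. Runx1 averaged 49.3 CPM with Y640F, 57.0 CPM with STAT3 and 67.0 CPM with empty vector. Lmo2 averaged 223 CPM with Y640F, 126 CPM with STAT3 and 74.9 CPM with empty vector. Cd34, a surface marker of early progenitors, averaged 193 ± 13.9 CPM with Y640F, 41.2 ± 0.873 CPM with STAT3 and 609 ± 49.3 CPM with empty vector in HPC7. It fell there with Y640F (log2 fold change −1.64 ± 0.06, adjusted p = 3.11e-10) and with STAT3 (−3.89 ± 0.07, adjusted p = 2.13e-13). In HPCLSK Cd34 also fell with Y640F against empty vector (−1.24 ± 0.09, adjusted p = 1.16e-06).

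Of the 8 granulocyte markers, 1 rose and 3 fell with Y640F against empty vector in HPCLSK, and 5 rose and 0 fell with STAT3, beside 16.2% of all tested genes called with Y640F and 4.60% with STAT3. In HPC7, 3 of the 4 tested fell with each form, beside 8.18% of all tested genes called with Y640F and 7.22% with STAT3. Their summed level was 4142 to 7734 CPM with Y640F, 11705 to 16364 CPM with STAT3 and 7707 to 11732 CPM with empty vector in HPCLSK. The HPC7 sums were 127 to 148 CPM with Y640F, 263 to 287 CPM with STAT3 and 332 to 669.9 CPM with empty vector. The part of these markers in the levels of Stat4 and the other members was not tested.

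**Figure D2:**
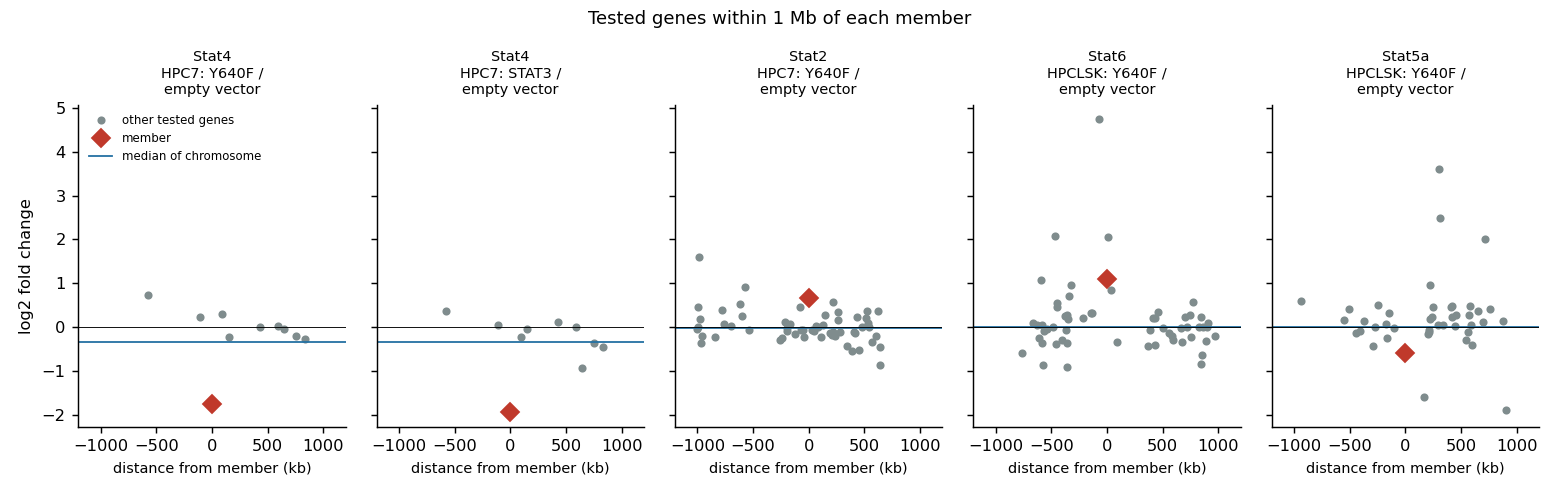
log2 fold change (vertical axis) of tested genes (grey) by distance from the member in kb (horizontal axis), with the member as a red diamond and the median of its chromosome as a blue line, for 5 pairs of member and comparison. Stat4 lies below all 9 neighbours in both HPC7 panels, and Stat6 in HPCLSK with Y640F lies below Lrp1 and Nab2.

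Stat6, the interleukin 4 and 13 mediator, rose with Y640F in HPCLSK. The libraries held 357, 295 and 293 CPM with Y640F, 171, 173 and 165 CPM with STAT3, and 143, 153 and 146 CPM with empty vector. The groups did not overlap, and Y640F replicate 1, one of the libraries that stand apart, was the highest. The log2 fold change was 1.10 ± 0.07 for Y640F against empty vector (adjusted p = 7.96e-07), 0.90 ± 0.07 for Y640F against STAT3 (adjusted p = 4.94e-06) and 0.21 ± 0.07 for STAT3 against empty vector (adjusted p = 0.0884). The call against empty vector lay close to the fold minimum, with 0.98 without Y640F replicate 1, 0.96 without that library and empty vector replicate 1, and 0.98 when scaled by library totals, which moved the median of all genes to −0.12.

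In HPC7 the forms lay on either side of empty vector for Stat6. The libraries held 116, 114 and 115 CPM with Y640F, 69.0, 67.7 and 70.8 CPM with STAT3, and 93.3, 86.0 and 80.6 CPM with empty vector. These groups did not overlap either. The log2 fold changes were 0.43 ± 0.05 for Y640F against empty vector (adjusted p = 7.47e-06), −0.32 ± 0.05 for STAT3 against empty vector (adjusted p = 0.000146) and 0.75 ± 0.05 for Y640F against STAT3 (adjusted p = 4.27e-08), all under the fold minimum. The difference between the lines, HPCLSK minus HPC7, was 0.68 ± 0.09 for Y640F against empty vector (adjusted p = 4.86e-06), 0.53 ± 0.09 for STAT3 against empty vector (adjusted p = 0.000214) and 0.16 ± 0.09 for Y640F against STAT3 (adjusted p = 0.172).

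The summed level of macrophage and dendritic markers was highest in the same HPCLSK group as Stat6. Their summed level over 7 genes was 821 to 1585 CPM with Y640F, 134 to 247 CPM with STAT3 and 177 to 217 CPM with empty vector, and none was at 0. Of the 6 tested, 4 rose and 1 fell with Y640F against empty vector, beside 16.2% of all tested genes called. Csf1r, the receptor of macrophage colony-stimulating factor, averaged 784 ± 323 CPM with Y640F and 70.4 ± 14.3 CPM with empty vector (log2 fold change 3.48 ± 0.41, adjusted p = 4.29e-05). In HPC7 the marker sum was 28.6 to 31.3 CPM with Y640F, 34.4 to 36.1 CPM with STAT3 and 21.2 to 25.7 CPM with empty vector. Itgax averaged 20.7 CPM with STAT3 and 7.20 CPM with empty vector there, while Adgre1 and Flt3 were lower with STAT3. Of the 6 tested in HPC7, 1 rose and 2 fell with STAT3 against empty vector (median 0.04), beside 7.22% of all tested genes called. With Y640F against empty vector 2 rose and 2 fell (median 0.04), beside 8.18%. The part of these markers in the level of Stat6 was not tested.

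Stat6 lies on chromosome 10 at 127642986 to 127660957 (GRCm38, plus strand; ENSMUSG00000002147.18), between genes that also differed. Nab2, a repressor of EGR transcription factors, lies on the opposite strand and overlaps the end of Stat6 by 40 bases. It stood at 59.5, 51.0 and 48.1 CPM in HPCLSK with Y640F and 14.9, 12.3 and 11.6 CPM with empty vector (log2 fold change 2.05 ± 0.12, adjusted p = 4.96e-07). Lrp1, for a large endocytic receptor, averaged 592 ± 80.2 CPM with Y640F and 22.3 ± 2.56 CPM with empty vector there (4.74 ± 0.14, adjusted p = 1.25e-08). Reads were counted by strand, a setting meant to separate Stat6 from Nab2 where they overlap. How well the libraries kept the strand was not checked. Of the 57 tested genes within 1 Mb of Stat6, 4 were called in HPCLSK with Y640F against empty vector, with a median of 0.01, beside 16.2% of all tested genes called. In HPC7 with STAT3 against empty vector, where Stat6 had −0.32, Nab2 rose (1.20 ± 0.05, adjusted p = 1.52e-09) and Lrp1 fell (−2.34 ± 0.19, adjusted p = 2.87e-07). With Y640F in HPC7 Nab2 had 0.54 ± 0.06 and Lrp1 0.03 ± 0.14.

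Stat2, the interferon partner of IRF9, had no call in any comparison. In HPCLSK the libraries held 37.7, 39.3 and 41.0 CPM with Y640F, 34.3, 37.2 and 36.1 CPM with STAT3, and 33.8, 36.1 and 34.4 CPM with empty vector, where STAT3 and empty vector overlapped. In HPC7 they held 39.2, 40.7 and 41.9 CPM with Y640F, 30.6, 28.6 and 29.0 CPM with STAT3, and 25.9, 27.3 and 24.9 CPM with empty vector, without overlap. The log2 fold change for Y640F against empty vector was 0.19 ± 0.06 in HPCLSK (adjusted p = 0.0233) and 0.66 ± 0.06 in HPC7 (adjusted p = 3.17e-07). Their difference, HPCLSK minus HPC7, was −0.46 ± 0.08 (adjusted p = 9.06e-05). For STAT3 against empty vector the values were 0.05 ± 0.06 in HPCLSK (adjusted p = 0.651) and 0.18 ± 0.06 in HPC7 (adjusted p = 0.0195). With Y640F the lines overlapped, at 39.3 ± 1.64 CPM in HPCLSK and 40.6 ± 1.35 CPM in HPC7.

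Irf9, which completes the DNA-binding complex with STAT2, averaged 30.8 ± 2.89 CPM with Y640F, 23.2 ± 3.13 CPM with STAT3 and 28.7 ± 3.25 CPM with empty vector in HPCLSK, and no difference was called there. In HPC7 it stood at 34.8, 33.8 and 32.6 CPM with Y640F, 11.4, 11.9 and 11.7 CPM with STAT3, and 17.4, 17.4 and 13.9 CPM with empty vector, without overlap. In HPC7 it rose with Y640F against empty vector (log2 fold change 1.08 ± 0.08, adjusted p = 9.34e-08) and was higher with Y640F than with STAT3 (1.55 ± 0.08, adjusted p = 4.03e-09). With STAT3 against empty vector in HPC7 the pair parted, Stat2 at 0.18 and Irf9 at −0.47 ± 0.09 (adjusted p = 0.000509). Of the 6 erythroid markers 5 were tested in HPC7, and 3 rose and 0 fell with Y640F against empty vector, beside 8.18% of all tested genes called. Their median log2 fold change was 1.12 with Y640F and 0.01 with STAT3. Gata1, the erythroid master regulator, averaged 26.1 CPM with Y640F, 8.83 CPM with STAT3 and 10.1 CPM with empty vector in HPC7, and Klf1 averaged 8.54 CPM with Y640F, 4.03 CPM with STAT3 and 3.99 CPM with empty vector. The summed level of the list in HPC7 was 774 to 821 CPM with Y640F, 856 to 887 CPM with STAT3 and 696 to 790.2 CPM with empty vector, with none of the 6 at 0. Of these sums Tfrc alone averaged 752 CPM with Y640F, 854 CPM with STAT3 and 728 CPM with empty vector. In HPCLSK the list median over the 3 tested was −0.14 for Y640F against empty vector, and Hba-a1 was at 0 in all 3 groups. The sums there were 652 to 694 CPM with Y640F, 708 to 716 CPM with STAT3 and 727 to 768 CPM with empty vector. Tfrc alone averaged 669 CPM with Y640F, 708 CPM with STAT3 and 742 CPM with empty vector in HPCLSK. Gata1 averaged 2.79 CPM and Klf1 0.271 CPM with empty vector in HPCLSK. The part of these markers in the levels of Irf9, Stat2 and Stat6 was not tested. Stat2 lies on chromosome 10 at 128270559 to 128292849 (plus strand; ENSMUSG00000040033.16), 609601 bases beyond the end of Stat6, and the 57 tested genes within 1 Mb of it had a median of −0.04 for Y640F against empty vector in HPC7.

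**Figure D3:**
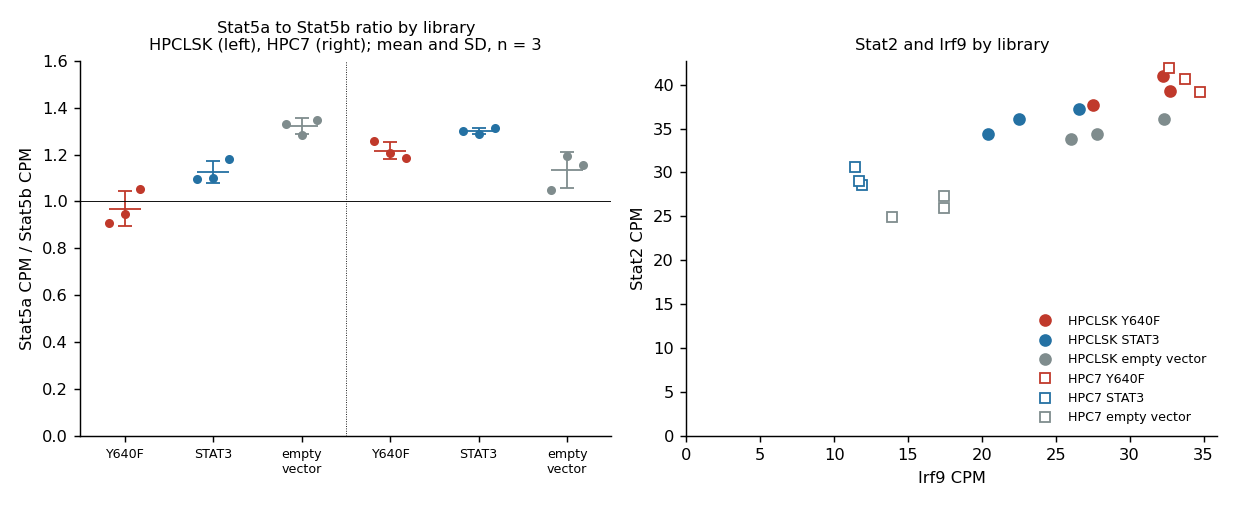
Left, the ratio of Stat5a to Stat5b CPM (vertical axis) by library in HPCLSK and HPC7, with mean and SD (n = 3); right, Stat2 CPM (vertical axis) against Irf9 CPM (horizontal axis), 1 point a library, filled for HPCLSK and open for HPC7. The ratio averages 0.969 with Y640F and 1.32 with empty vector in HPCLSK, and the HPC7 Y640F libraries hold 39.2 to 41.9 CPM of Stat2 at 32.6 to 34.8 CPM of Irf9.

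Stat5a and Stat5b carry signals of the growth factor receptors of blood cells, and neither was called within a line. In HPCLSK Stat5a stood at 118, 137 and 138 CPM with Y640F, 174, 177 and 183 CPM with STAT3, and 219, 183 and 194 CPM with empty vector. The Y640F libraries lay below all others, while the highest STAT3 library (182.7 CPM) nearly met the lowest empty vector library (183.1 CPM). The log2 fold change of Stat5a was −0.59 ± 0.08 for Y640F against empty vector (adjusted p = 7.75e-05) and −0.44 ± 0.08 for Y640F against STAT3 (adjusted p = 0.000779), both under the fold minimum. For STAT3 against empty vector it was −0.15 ± 0.08 (adjusted p = 0.223). Stat5b stood at 130, 145 and 131 CPM with Y640F, 158, 161 and 155 CPM with STAT3, and 164, 142 and 144 CPM with empty vector. There the Y640F and empty vector libraries overlapped, with a log2 fold change of −0.14 ± 0.06 (adjusted p = 0.0819).

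The ratio of Stat5a to Stat5b within a library needs no scaling between libraries. In HPCLSK it was 0.969 ± 0.0761 with Y640F, 1.13 ± 0.0459 with STAT3 and 1.32 ± 0.033 with empty vector, and no groups overlapped. The exact permutation test (two-sided) gave p = 0.1 for each of these 3 pairs of groups (0.117 after Benjamini-Hochberg adjustment over 21 ratio tests), the smallest p that 3 libraries against 3 allow. In HPC7 the ratio was 1.22 ± 0.0363 with Y640F, 1.30 ± 0.0139 with STAT3 and 1.13 ± 0.0754 with empty vector. The STAT3 libraries overlapped neither other group there, and the same exact permutation test gave p = 0.1 (adjusted 0.117) for STAT3 against empty vector and for Y640F against STAT3. STAT3 thus stood above empty vector in HPC7 and below it in HPCLSK. For Y640F against empty vector in HPC7 the libraries overlapped, and the exact p was 0.2 (adjusted 0.21). Stat5a in HPC7 averaged 104 ± 3.70 CPM with Y640F, 109 ± 2.04 CPM with STAT3 and 101 ± 8.25 CPM with empty vector, with overlapping libraries. Stat5b averaged 85.7 ± 1.23 CPM with Y640F, 83.9 ± 1.20 CPM with STAT3 and 88.7 ± 1.87 CPM with empty vector. No adjusted p of these HPC7 comparisons was under 0.05. For Y640F against empty vector the HPCLSK value minus the HPC7 value was −0.65 ± 0.10 for Stat5a (adjusted p = 2.12e-05) and −0.10 ± 0.07 for Stat5b (adjusted p = 0.288).

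Markers of mast cells and basophils, cells that depend on STAT5, summed to 1065 to 1531 CPM in HPCLSK with Y640F, 3006 to 3174 CPM with STAT3 and 4083 to 5740 CPM with empty vector, and none of the 6 was at 0. Of these 6, 1 rose and 2 fell with Y640F against empty vector, beside 16.2% of all tested genes called. The list median was 0.41 on the log2 scale. Cpa3 averaged 721 CPM with Y640F and 3425 CPM with empty vector, and Ms4a2 115 CPM with Y640F and 915 CPM with empty vector. The means of Fcer1a, Mcpt8, Prss34 and Il1rl1 were higher with Y640F than with empty vector. In HPC7 the sum was 535 to 549 CPM with Y640F, 459 to 479.8 CPM with STAT3 and 370.5 to 513 CPM with empty vector, with Mcpt8, Prss34 and Fcer1a at 0 in all 3 groups. Their part in the level of Stat5a was not tested. The Stat5 genes share much of their sequence, and the counting had no option for reads with several matches. Reads of shared stretches may therefore be missing from both genes, to unequal degrees. Stat5b (chromosome 11, 100780731 to 100850724, minus strand; ENSMUSG00000020919.11) and Stat5a (100859351 to 100885169, plus strand; ENSMUSG00000004043.14) lie 8626 bases apart. The end of Stat5a overlaps the end of Stat3 (100885098 to 100939540, minus strand; ENSMUSG00000004040.16) by 72 bases on the opposite strand. With Y640F against empty vector in HPCLSK, Stat3 had a log2 fold change of 2.43 and Stat5a one of −0.59.

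**Figure D4:**
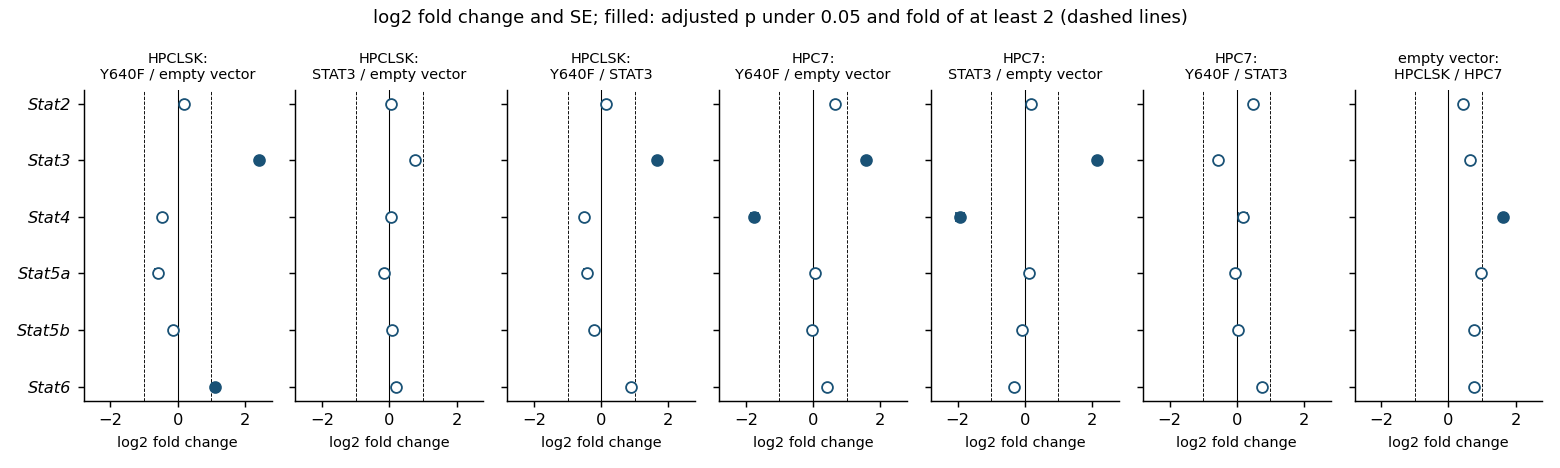
log2 fold change (horizontal axes) with SE, which is mostly hidden by the point, of the 6 members (rows) in 7 comparisons (panels); filled points were called and dashed lines mark a fold of 2. Stat4 is called lower in both HPC7 comparisons with empty vector and higher in HPCLSK than in HPC7, and Stat6 is called higher once, in HPCLSK with Y640F against empty vector.

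With empty vector, every member stood higher in HPCLSK than in HPC7. Stat4 was called, with 55.5 ± 1.42 CPM in HPCLSK and 17.9 ± 2.16 CPM in HPC7 (on the log2 scale 1.64 ± 0.08, adjusted p = 7.84e-13). The 1 call of 6 compares with 36.4% of all tested genes, and the 6 of 6 that passed the adjusted p alone with 80.6%. Stat5a had 199 ± 18.2 CPM in HPCLSK and 101 ± 8.25 CPM in HPC7 (0.98 ± 0.07, adjusted p = 1.49e-10), at the edge of the fold minimum. The log2 fold change was 0.77 ± 0.07 for Stat6, 0.76 ± 0.05 for Stat5b, 0.66 for Stat3 and 0.42 ± 0.06 for Stat2. The members had a median of 0.76, beside 0.04 over all tested genes, whose changes ran in both directions. The median size of the change, sign aside, was 0.76 for the members and 0.71 over all tested genes.

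Tests of the difference between the lines called 1 or 2 of 6 members. The counts include Stat3, whose reads hold vector RNA. For STAT3 against empty vector 2 of 6 were called (Stat4 higher, Stat3 lower), against 8.25% of all tested genes, and 4 of 6 against 30.4% by the adjusted p alone. For Y640F against empty vector it was 1 of 6 (Stat4, higher) against 15.0%, and 5 of 6 against 48.6%. For Y640F against STAT3 it was 1 of 6 (Stat3, higher) against 12.5%, and 5 of 6 against 45.3%. Stat3 had 2.24 ± 0.07 in the last of these tests (adjusted p = 6.14e-14).

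Levels of different members were compared per kilobase of exon. The length was the exon length of the gene in the count files, 9527 bases for Stat3 and 4402 for Stat6. Which transcripts these cells hold was not analysed, and Stat3 reads from the vectors were divided by the same length. Among the 5 members other than Stat3, Stat6 had the largest mean share of the summed CPM per kb in every group. In HPCLSK its share was 54.3 ± 3.97% with Y640F, 34.2 ± 0.680% with STAT3 and 30.9 ± 1.96% with empty vector. In HPC7 it was 40.5 ± 0.415% with Y640F, 30.0 ± 0.278% with STAT3 and 33.4 ± 1.98% with empty vector, and with STAT3 it lay near the shares of Stat5a (29.2 ± 0.318%) and Stat5b (28.9 ± 0.473%). The summed level of the 5 was 131 ± 5.45 CPM per kb in HPCLSK with Y640F, 113 ± 1.67 with STAT3 and 109 ± 4.02 with empty vector. In HPC7 it was 64.4 ± 0.643 CPM per kb with Y640F, 52.3 ± 0.729 with STAT3 and 58.9 ± 2.16 with empty vector. Stat4 held 7.94 ± 0.496% with Y640F, 13.1 ± 0.388% with STAT3 and 13.2 ± 0.181% with empty vector in HPCLSK. In HPC7 it held 2.10 ± 0.108% with Y640F, 2.32 ± 0.276% with STAT3 and 7.84 ± 0.702% with empty vector.

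Stat3 took 60.3 ± 1.52% of the family's summed CPM per kb with Y640F in HPCLSK, 35.8 ± 1.92% with STAT3 and 25.5 ± 0.548% with empty vector. In HPC7 it took 52.2 ± 0.610% with Y640F, 66.6 ± 0.692% with STAT3 and 28.6 ± 0.340% with empty vector. With empty vector alone, Stat3 was the first member per kb in both lines, at 37.2 ± 1.31 CPM per kb in HPCLSK and 23.6 ± 1.06 CPM per kb in HPC7, followed by Stat6 at 33.5 ± 1.11 CPM per kb in HPCLSK and 19.7 ± 1.44 CPM per kb in HPC7. Their libraries did not overlap in either line.

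**Figure D5:**
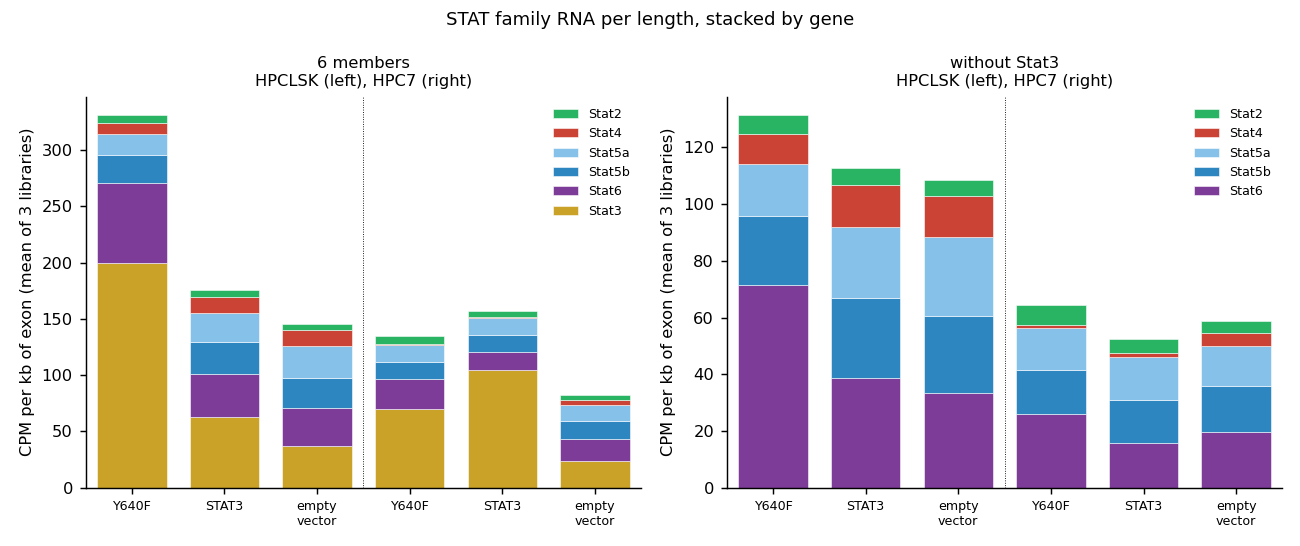
Stacked mean CPM per kb of exon (vertical axes, from 0; 3 libraries a group) of all 6 members (left) and without Stat3 (right), HPCLSK left and HPC7 right of the dotted line. The 5 members other than Stat3 sum to 131 CPM per kb in HPCLSK with Y640F and 109 with empty vector, and Stat6 is the largest block of these in every group.

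Across the 6 group means, the order of the groups differed by member. Stat6 ran from HPCLSK Y640F through HPCLSK STAT3, HPCLSK empty vector, HPC7 Y640F and HPC7 empty vector to HPC7 STAT3, with no overlap between any neighbours and a 4.55-fold span. Stat4 spanned 12.2-fold, highest in HPCLSK with STAT3 and lowest in HPC7 with STAT3, and its neighbours overlapped at both ends of the order. Stat2 spanned 1.56-fold, Stat5b 1.88-fold and Stat5a 1.97-fold. Stat5a and Stat5b were lower in every HPC7 group than in every HPCLSK group.

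Genes with the most similar profile over the 6 group means (18 libraries, 11856 genes searched) were found by the root mean square distance of centred log2 CPM, for members that span at least 1 on that scale. For Stat4 they were Nlrc4, an inflammasome sensor (distance 0.136), Cep85l (0.228) and Sccpdh (0.230). Nlrc4 averaged 22.4 CPM with Y640F, 29.3 CPM with STAT3 and 27.3 CPM with empty vector in HPCLSK. In HPC7 it averaged 2.29 CPM with Y640F, 2.33 CPM with STAT3 and 11.4 CPM with empty vector. For Stat6 they included Aaed1 (0.113) and Mfsd1 (0.126). Mfsd1 averaged 308 CPM with Y640F, 194 CPM with STAT3 and 184 CPM with empty vector in HPCLSK. In HPC7 it averaged 113 CPM with Y640F, 77.4 CPM with STAT3 and 91.4 CPM with empty vector. For Stat3 the AP-1 factor gene Fosl2 came first at a larger distance (0.415), before Wsb2 (0.470) and Sh3tc1 (0.487).

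Of the 4 Janus kinases that act above the STAT proteins, Jak1, Jak2, Jak3 and Tyk2, none was called in any of the 10 comparisons by edgeR or DESeq2. In these comparisons 4.60% to 36.4% of all tested genes were called, and 0 to 4 of the kinases had an unadjusted p under 0.05. By the adjusted p alone, 2 were higher and 1 lower for Y640F against empty vector in HPCLSK (58.5% of all tested genes). In HPC7 2 were higher and 2 lower (57.3%). Jak1 had a log2 fold change of −0.41 ± 0.07 with Y640F against empty vector in HPCLSK (adjusted p = 0.000768) and −0.62 ± 0.04 in HPC7 (adjusted p = 1.82e-08). Jak2, which serves many STAT5 receptors, had 0.40 ± 0.11 in HPCLSK and 0.57 ± 0.05 in HPC7 for that comparison, and Jak3 had 0.32 ± 0.06 in HPCLSK and 0.24 ± 0.04 in HPC7. The list median for Y640F against empty vector was 0.18 in HPCLSK and 0.03 in HPC7, beside −0.01 over all tested genes in HPCLSK and 0.00 in HPC7.

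Of the 5 tested phosphatases that act on Janus kinases or STAT proteins, 2 rose and 0 fell in HPCLSK with Y640F against empty vector, beside 16.2% of all tested genes called. Ptpn6 (SHP-1) averaged 764 ± 67.2 CPM with Y640F and 266 ± 9.51 CPM with empty vector (log2 fold change 1.53 ± 0.08, adjusted p = 1.44e-07), and Ptpn1 (PTP1B) 286 ± 56.0 CPM with Y640F and 113 ± 2.29 CPM with empty vector (1.34 ± 0.11, adjusted p = 3.5e-06). The list median was 0.74, beside −0.01 over all tested genes. In HPC7 none of the 5 was called with Y640F against empty vector by edgeR or DESeq2 (5 had an unadjusted p under 0.05), with a median of −0.11, beside 8.18% of all tested genes called. The difference between the lines for that comparison was called for Ptpn6 (1.65 ± 0.09, adjusted p = 5.01e-11) and for the CD45 gene Ptprc (1.21 ± 0.13, adjusted p = 4.72e-07). These were 2 of 5 tested, beside 15.0% of all tested genes called.

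Of the 4 PIAS genes, inhibitors of STAT activity, only Pias3 was called, in 1 of the 10 comparisons. With empty vector it averaged 51.5 ± 3.83 CPM in HPCLSK and 18.7 ± 2.11 CPM in HPC7 (on the log2 scale 1.46 ± 0.08, adjusted p = 1.28e-12). In that comparison 36.4% of all tested genes were called. Of 10 partners and coactivators, 1 rose and 0 fell with Y640F against empty vector in HPCLSK, beside 16.2% of all tested genes called. It was Jun, which averaged 30.8 ± 5.93 CPM with Y640F and 8.83 ± 2.19 CPM with empty vector (1.83 ± 0.20, adjusted p = 2.46e-05). In HPC7 the 1 that rose was Irf9, described above, beside 8.18% of all tested genes called. The medians of this list were 0.16 in HPCLSK and −0.14 in HPC7. Among the SOCS feedback inhibitors, 2 of 8 tested rose and 1 fell with Y640F against empty vector in HPCLSK (median −0.21; 16.2% of all tested genes called), and 2 of 7 rose and 0 fell in HPC7 (median 0.40; 8.18% called).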

How the data were processed

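The authors' deposited files hold raw counts of reads per gene for 18 mRNA libraries, per the labels. Per the file headers, reads aligned with STAR were counted over exons with featureCounts 1.5.1 at strand setting 2 on GENCODE M13, with no option for reads with several matches. The submitters' processing notes name Trimmomatic and the builds GRCm38 and mm10. The series text and the sample protocols name different library kits. Symbols matched 50376 of 50686 gene IDs.

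Counts were tested with edgeR 4.0.16 (R 4.3.3): filterByExpr, TMM, and the quasi-likelihood test, over 12552 genes in HPCLSK, 12683 in HPC7 and 13891 in the fit of 18 libraries. The residual degrees of freedom were 6, 6 and 12. The tests were tested on simulated data. Exon lengths for CPM per kb come from the count files. Alternatives were DESeq2 1.42.0, other scalings, filters and fits, and leaving out libraries. Genes named are the members, at most 3 called genes of each pathway list per comparison by size, tested neighbours of a member, and up to 3 genes of nearest profile. Genes named from the marker lists, and the kinases, were named after their values were seen. Members, lists and tests were chosen with earlier results of these data known. Some genes that these rules take are not reported here. The 12 chromatin samples were not analysed here.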

Additional observations from a re-analysis of the deposited data

Results flagged for a closer look

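The responses of 2 members differed between the lines by a test of the difference itself (edgeR, all 18 libraries), past a fold of 2. For Stat4 the log2 fold change in HPCLSK less that in HPC7 was 1.97 for STAT3 against empty vector and 1.31 for Y640F against empty vector, both against the same empty vector libraries of each line. For Stat3, whose counts include vector RNA, it was −1.39 for STAT3 against empty vector and 2.24 for Y640F against STAT3.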

How the results depend on the processing

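No value changed direction while called. Of 468 member folds with 1 library left out, 465 kept their side of the call, as did 434 of 438 under other settings. The exceptions were the Stat6 fold in HPCLSK given in the report and the Stat5a fold between lines with empty vector (1.03 with at least 5 CPM in 3 libraries, 1.00 with the replicate block, 1.02 without HPCLSK empty vector replicate 2 and 1.01 without HPC7 empty vector replicate 2).

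Members called between lines with empty vector were accordingly 2 of 6 with the filter of 5 CPM and 2 of 6 with the replicate block, and 1 to 2 with 1 library left out. For Y640F against empty vector in HPCLSK it was 1 with library totals, 1 when replicate 1 was dropped from both HPCLSK groups, and 1 to 2 with 1 library left out. With no fold minimum the counts were 5 (Y640F against empty vector), 1 (STAT3 against empty vector) and 5 (Y640F against STAT3) in HPCLSK. In HPC7 they were 4 (Y640F against empty vector), 4 (STAT3 against empty vector) and 3 (Y640F against STAT3). Between lines they were 6 with empty vector, and for the line differences 5 (Y640F against empty vector), 4 (STAT3 against empty vector) and 5 (Y640F against STAT3).

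The replicate numbers did not pair the libraries: deviations of same-numbered libraries correlated at −0.20 to 0.09 in HPCLSK and −0.11 to 0.08 in HPC7, with 0 of 9 pairs over 0.1 in each line. The block changed no other call of a member. At 9537258 to 38556669 counts a library, 3 counts stand for 0.0778 to 0.315 CPM, and with 3 libraries a group an exact test of a single ratio cannot go below p = 0.1.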

Other observations

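For carriers that move proteins through the nuclear pore, which STAT proteins use, no call was made within a line. There 4.60% to 16.2% of all tested genes were called, by comparison. With empty vector Kpna2, an importin alpha, was higher in HPCLSK than in HPC7, by 2.69 ± 0.14 on the log2 scale (adjusted p = 9.61e-13), and Kpnb1, the importin beta, lower (−1.16 ± 0.04, adjusted p = 1.96e-15). These were 2 of 7 tested, beside 36.4% of all tested genes called. With Y640F against empty vector none of the 7 was called by edgeR or DESeq2, beside 16.2% of all tested genes called in HPCLSK and 8.18% in HPC7. In HPCLSK 7 had an unadjusted p under 0.05 and in HPC7 3 had, with a list median of 0.26 in HPCLSK and −0.11 in HPC7. The HPCLSK value minus the HPC7 value for that comparison was called for Kpna2 (1.04 ± 0.19, adjusted p = 0.00019), 1 of 7 tested, beside 15.0% of all tested genes.

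Interferon regulatory factors, which share DNA sites with STAT2, had 1 call of 7 tested in each comparison within a line. There 4.60% to 16.2% of all tested genes were called, by comparison. In HPCLSK Irf7 averaged 16.4 ± 1.14 CPM with Y640F, 3.87 ± 2.00 CPM with STAT3 and 7.75 ± 2.19 CPM with empty vector. It rose with Y640F against empty vector (log2 fold change 1.06 ± 0.26, adjusted p = 0.00464), 1 of 7 tested, beside 16.2% of all tested genes. Irf8, a factor of monocytes and dendritic cells, fell with STAT3 against empty vector there (−1.13 ± 0.27, adjusted p = 0.0189), 1 of 7 tested, beside 4.60% of all tested genes. In HPC7 Irf7 stayed below 0.2 CPM on average in every group.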
